A study of Homo sapiens with 12 samples.

Results

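The 10 long noncoding RNAs described here are MALAT1, NEAT1, MIAT, MEG3, MEG8, H19, KCNQ1OT1, RMST, SOX2-OT and LINC-PINT. They were chosen by name, as well-studied RNAs of the nucleus or of neural tissue, and found as the rows of the raw count table that carry those symbols. The table holds 59653 genes, and all 10 are among the 24671 genes with enough counts to be tested. The libraries were made from total RNA of human neurons grown from induced pluripotent stem cells (line IMR-90, of fibroblast origin). In 6 libraries the cells had received a negative control siRNA (siNC), and in the other 6 an siRNA against ZCCHC17 (siZCC), a zinc knuckle protein of the nucleolus that binds RNA. All 12 libraries therefore come from transfected cells of 1 line, and none from untreated cells. The sample titles also carry the letters NPC, which are not explained. Nothing in the labels says whether replicates were separate cultures, so the p-values measure only the spread between these libraries, which may be technical.

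The targeted gene followed the labels: ZCCHC17 was at 56.9 ± 2.49 counts-per-million (CPM, scaled by TMM factors; SD, n = 6) in siNC and at 9.999 ± 0.507 (SD, n = 6) in siZCC, a log2 fold change of -2.51 ± 0.040 (SE). The siNC libraries held 90755953 to 120023356 counts each and the siZCC libraries 76115083 to 105389055. Both neuronal and progenitor markers were present: in siNC, MAP2 was at 1027 ± 104 CPM and NES at 1118 ± 58.8 CPM (SD, n = 6). The libraries fell on 2 sides of a wide gap in IL1B, an inflammatory cytokine gene, that no label explains. IL1B was at 5.23 to 16.0 CPM in siNC replicates 2, 3 and 6 and siZCC replicates 1, 4 and 5, and at 0.022 to 0.10 CPM in the remaining 6. Each side holds 3 libraries of each group, so results are also given within each side.

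Long noncoding RNAs are transcribed and often spliced like messenger RNAs but are not translated, and many act in the nucleus. MALAT1 gathers in nuclear speckles, NEAT1 is the scaffold around which paraspeckles form, and MIAT (Gomafu) forms its own nuclear domains in neurons and binds the splicing factor SF1 through repeats that resemble the intron branch point. MEG3 and MEG8 are expressed from the maternal copy of the imprinted DLK1-DIO3 domain, and H19 and KCNQ1OT1 belong to the imprinted domains of IGF2 and CDKN1C. RMST is a neural RNA that works with SOX2, the transcription factor of neural progenitors, SOX2-OT is a transcript whose gene contains SOX2, and LINC-PINT is induced by p53 and starts beside MKLN1.

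Stretches of MIAT and NEAT1 are shown for sequence features described in these RNAs. The first stretch below is MIAT, shown because it carries the branch point-like repeat through which MIAT binds SF1. It lies in exon 5 of the longest GENCODE v29 transcript (bases 5069 to 5248, chr22:26671401-26671580, plus strand, GRCh38), written as DNA, with its 5 copies of ACTAAC in capitals. The second is the last 110 bases of the long NEAT1 transcript (chr11:65445431-65445540, plus strand, GRCh38), whose single exon ends without a poly(A) tail. Its capitals mark the U-rich stretches, written with T, and the A-rich end, which are known to fold into a triple helix that protects the RNA.
MIAT: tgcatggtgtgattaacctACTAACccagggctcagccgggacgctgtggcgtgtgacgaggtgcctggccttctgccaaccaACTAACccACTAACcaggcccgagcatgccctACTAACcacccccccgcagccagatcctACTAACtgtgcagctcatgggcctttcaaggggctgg
NEAT1: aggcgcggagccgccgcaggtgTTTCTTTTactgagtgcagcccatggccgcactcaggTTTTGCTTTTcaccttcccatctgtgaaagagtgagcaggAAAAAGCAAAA

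Searched on the transcript strand, the letters ACTAAC occurred 14 times in the 10143 bases of MIAT, 7 of them as TACTAAC, a density of 1.38 per kb. Among the longest transcripts (of at least 1000 bases) of 5761 other long noncoding RNA genes the mean density was 0.122 per kb, 23.7% held the motif at all, and 22 (0.38%) reached the density of MIAT. NEAT1 held 5 copies in 22743 bases, KCNQ1OT1 17 in 91667 bases and MEG3 1, while the longest transcripts of the other 6 members held none. The copies in MIAT stood in separate clusters in the middle and later part of the transcript, whereas those of NEAT1 were spread along it. A match describes the letters only, and binding of SF1 was not measured.

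**Figure D1:**
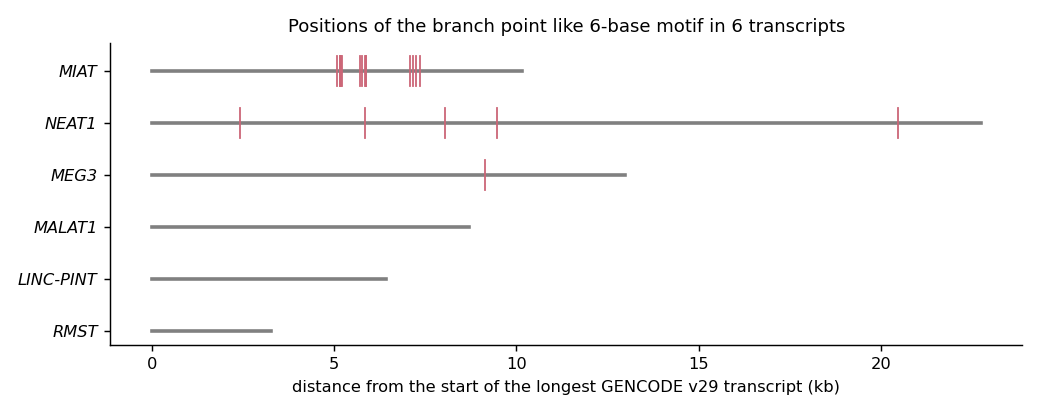
Positions of ACTAAC (red ticks) along the longest GENCODE v29 transcript of 6 of the RNAs; the x axis is the distance from the transcript start in kb. The 14 copies in MIAT sit in clusters, NEAT1 has 5 scattered copies, MEG3 has 1, and MALAT1, LINC-PINT and RMST have none.

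Of the 10 RNAs, NEAT1 and LINC-PINT rose after ZCCHC17 knockdown and RMST fell, while 7 did not pass the test. A gene was called where the quasi-likelihood test of edgeR gave a p under 0.05 after Benjamini-Hochberg adjustment over all 24671 genes. Across those genes 22.2% were called, 11.4% as higher and 10.8% as lower, so 3 of 10 is close to the background. The groups did not overlap for 2 members (NEAT1 and RMST), against 9.74% of all genes. The median log2 fold change was 0.08 over the members and -0.002 over all genes, and the median absolute value 0.13 against 0.11. Together the 10 RNAs took 0.265% ± 0.0108 of all counts in siNC and 0.285% ± 0.0224 in siZCC (SD, n = 6 each), and these ranges, 0.245% to 0.278% and 0.258% to 0.321%, overlapped. MALAT1 and MIAT made up 86.4% of these counts in siNC and 86.2% in siZCC.

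**Figure D2:**
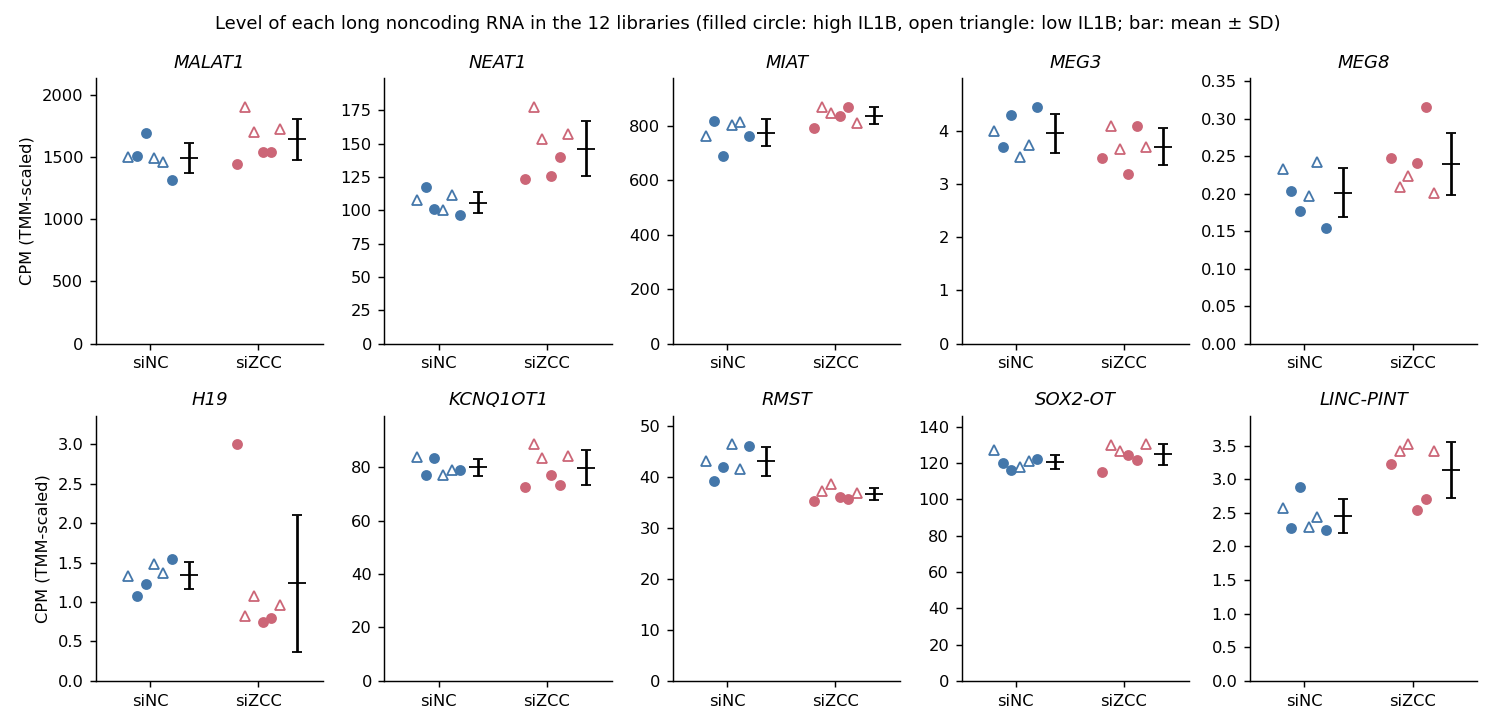
TMM-scaled CPM of each RNA in the 6 siNC (blue) and 6 siZCC (red) libraries, with filled circles for libraries of high IL1B, open triangles for low IL1B, and bars for the mean ± SD. The siZCC libraries of NEAT1 (123.5 to 177.7 CPM) lie above and those of RMST (35.4 to 38.7 CPM) below every siNC library, and 1 siZCC library of H19 stands apart at 2.999 CPM.

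Among the RNAs of nuclear bodies, NEAT1 (chr11:65422774-65445540, plus strand) moved the most. In siNC its level was 96.5 CPM in the lowest library, 104.4 at the median and 117 in the highest, and in siZCC it was 123.5, 146.9 and 177.7 CPM. Every siZCC library was thus above every siNC library, and siZCC replicate 2 was the highest. The mean went from 105.8 ± 7.88 to 146.4 ± 20.7 CPM (SD, n = 6 each), a 1.38-fold rise with a log2 fold change of 0.47 ± 0.075 (SE; 95% interval 0.31 to 0.63; adjusted p = 0.000317). Per kb of annotated exon this was 4.65 CPM in siNC and 6.43 CPM in siZCC. The NEAT1 gene yields a short and a long transcript that share their start, of which only the long one builds paraspeckles, and counts per gene do not separate them. In bulk libraries like these, a change in the number of cells of a type and a change in RNA per cell cannot be told apart.

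The level of NEAT1 was higher in siZCC on both sides of the IL1B gap. Among high-IL1B libraries it was 104.8 ± 10.9 CPM in siNC and 129.9 ± 8.99 in siZCC (SD, n = 3 each), a log2 fold change of 0.31 (edgeR, adjusted p = 0.0242). Among low-IL1B libraries it was 106.8 ± 5.71 and 162.9 ± 12.9 CPM (SD, n = 3 each), a log2 fold change of 0.61 (edgeR, adjusted p = 0.00048). Across the 12 libraries, after removing the group means, the log2 level of NEAT1 had r = 0.71 with the log2 library total. The part of depth in the difference of NEAT1 was not tested.

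MALAT1 (chr11:65497688-65506516, plus strand), which lies downstream of NEAT1 on the same strand and is processed at its end in a like way, was by far the most abundant of the 10 per length. It stood at 169.2 ± 13.8 CPM per kb in siNC and 186.0 ± 18.8 in siZCC (SD, n = 6 each). In the lowest, median and highest library it was at 1313, 1495 and 1695 CPM in siNC and 1447, 1621 and 1903 CPM in siZCC. The groups overlapped, with 3 siZCC libraries above the siNC maximum. The log2 fold change of 0.14 ± 0.062 (SE; 95% interval 0.01 to 0.27) did not pass the test (edgeR, adjusted p = 0.125), though it was 0.18 without siNC replicate 3 (edgeR, adjusted p = 0.0448). The 3 siZCC libraries above the siNC range were the 3 of low IL1B, where MALAT1 averaged 1777 ± 110 CPM against 1483 ± 21.6 in siNC (SD, n = 3 each), a log2 fold change of 0.26 (edgeR, adjusted p = 0.00896). Among the high-IL1B libraries MALAT1 averaged 1508 ± 52.5 CPM in siZCC and 1504 ± 190.7 in siNC (SD, n = 3 each).

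MIAT (chr22:26646428-26676475, plus strand) came next per length, at 65.5 ± 4.12 CPM per kb in siNC and 70.7 ± 2.67 in siZCC (SD, n = 6 each). Its lowest, median and highest levels were 689, 783 and 816 CPM in siNC and 791, 842 and 869 CPM in siZCC. The groups overlapped, with 4 siZCC libraries above the siNC maximum. The log2 fold change of 0.11 ± 0.039 (SE; 95% interval 0.03 to 0.19) fell just outside the threshold (edgeR, adjusted p = 0.0515). It passed in 9 of the 23 other settings, among them limma voom at an adjusted p of 0.0442, the DESeq2 Wald test at 0.0421, and the fits without siNC replicate 2 (0.0339), siNC replicate 5 (0.0345) or siZCC replicate 1 (0.0402).

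Within each library, NEAT1 also changed relative to MALAT1. The log2 ratio of their counts was -3.82 ± 0.144 in siNC and -3.49 ± 0.072 in siZCC (SD, n = 6 each), and all 6 siZCC libraries were above the siNC maximum of -3.68. The difference was 0.32 (two-sided exact permutation test, p = 0.00216, the smallest it can give; Benjamini-Hochberg adjusted over the 6 ratios compared, 0.013). This ratio does not depend on how libraries were scaled.

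**Figure D3:**
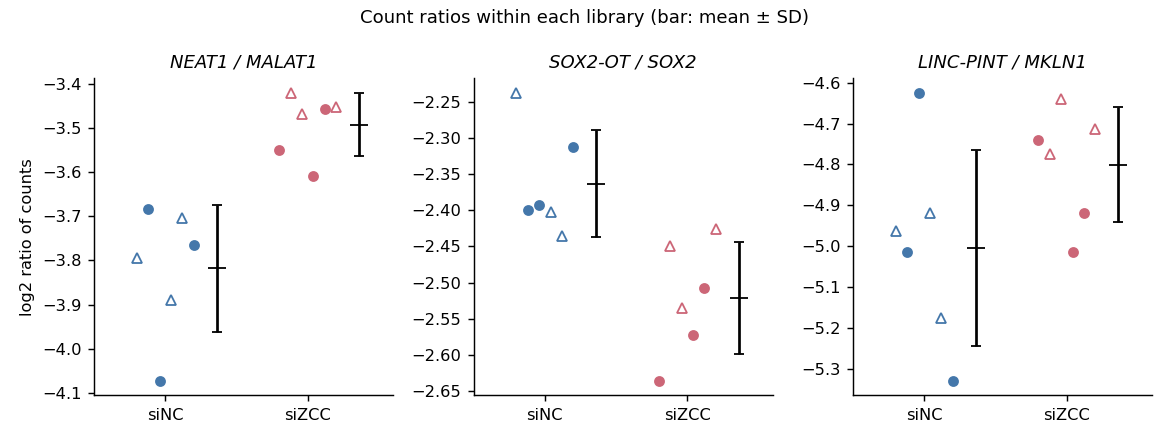
Log2 ratio of the counts of NEAT1 to MALAT1, SOX2-OT to SOX2 and LINC-PINT to MKLN1 in each library (blue siNC, red siZCC; filled circles high IL1B, open triangles low IL1B; bars mean ± SD). The NEAT1 ratio is higher in all 6 siZCC libraries, the SOX2-OT ratio is below the siNC minimum in 5 of 6, and the LINC-PINT ratios overlap.

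The messages of some paraspeckle proteins fell. Of 19 listed paraspeckle proteins, all tested, 6 fell, none rose (1 did under a GC content and length correction), and the median log2 fold change was -0.04. The 6 calls are 31.6% of the list, beside 22.2% called over all genes, 10.8% as lower. PSPC1, one of the core proteins that bind NEAT1, went from 72.4 ± 1.78 to 63.2 ± 2.77 CPM (log2 fold change -0.20 ± 0.031, SE; edgeR, adjusted p = 0.00031). HNRNPK, which is needed for paraspeckles to form, went from 579.4 ± 7.89 to 525.7 ± 5.47 CPM (log2 fold change -0.14 ± 0.022, SE; edgeR, adjusted p = 0.000266). The other 4 were MATR3, HNRNPR, TARDBP and EWSR1, with log2 fold changes of -0.13, -0.11, -0.13 and -0.09 (edgeR, adjusted p = 0.00351, 0.00386, 0.00695 and 0.0234). The remaining 13 of the list, NONO and SFPQ among them, were not called. Within the 6 libraries of low IL1B the number called was 2, and within those of high IL1B 4. Over all genes these smaller fits called 1602 and 2043, against 5481 with all 12 libraries.

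The imprinted RNAs did not pass the test, and their levels ranged widely. KCNQ1OT1 (chr11:2608328-2699994, minus strand), the unspliced RNA that silences CDKN1C and its neighbours in cis, differed least between the group means. From lowest through median to highest, its level was 77.0, 78.9 and 83.9 CPM in siNC and 72.5, 80.2 and 88.6 CPM in siZCC. The groups overlapped throughout, and the log2 fold change was -0.0012 ± 0.046 (SE; 95% interval -0.10 to 0.10; edgeR, adjusted p = 0.989). That average covers libraries on both sides of it. Among the 3 low-IL1B libraries of each group the mean was 79.9 ± 3.56 CPM in siNC and 85.4 ± 2.82 in siZCC, and among the 3 high-IL1B libraries 79.9 ± 3.33 and 74.2 ± 2.47 (SD). CDKN1C, the growth inhibitor it silences on the paternal copy, was at 7.71 ± 0.414 and 7.80 ± 0.916 CPM (SD, n = 6 each), and the log2 ratio of KCNQ1OT1 to CDKN1C differed by -0.02 (exact permutation p = 0.887; adjusted 0.887).

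KCNQ1OT1 lies inside KCNQ1 on the opposite strand, and whether the counting used strand is not given in the sources used here. KCNQ1, the potassium channel gene, held 12 to 23 counts in siNC and 7 to 18 in siZCC.

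MEG3 (chr14:100779410-100861031, plus strand), a growth-restraining RNA of brain and pituitary, was low per length, at 0.170 CPM per kb in siNC and 0.160 in siZCC. Its lowest, median and highest levels were 3.52, 3.88 and 4.46 CPM in siNC and 3.204, 3.68 and 4.10 CPM in siZCC. The groups overlapped, and the log2 fold change was -0.09 ± 0.076 (SE; 95% interval -0.26 to 0.07; edgeR, adjusted p = 0.423). MEG8 (chr14:100894770-101038859, plus strand), the host of small nucleolar RNAs further along the same domain, had only 18 to 29 counts per library in siNC and 18 to 26 in siZCC. The lowest, median and highest levels of MEG8 were 0.155, 0.2002 and 0.242 CPM in siNC and 0.201, 0.232 and 0.316 CPM in siZCC, which overlapped. The log2 fold change of 0.24 ± 0.176 (SE; 95% interval -0.13 to 0.61; edgeR, adjusted p = 0.36) is thus too loosely bounded at this depth to show a change of its own size. The log2 ratio of MEG8 to MEG3 was -4.28 ± 0.336 in siNC and -3.93 ± 0.249 in siZCC (SD, n = 6 each; exact permutation p = 0.0671, adjusted 0.134).

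H19 (chr11:1995176-2001470, minus strand), a fetal RNA that most tissues shut off after birth, had a value that turned on a single library. Its lowest, median and highest levels were 1.08, 1.35 and 1.54 CPM in siNC and 0.748, 0.891 and 2.999 CPM in siZCC. The highest value is siZCC replicate 1, with 254 counts, while the other siZCC libraries held 56 to 97 and reached at most 1.08 CPM. With all libraries the log2 fold change was -0.11 ± 0.274 (SE; 95% interval -0.69 to 0.46; edgeR, adjusted p = 0.811). Without siZCC replicate 1 it was -0.60 (edgeR, adjusted p = 0.00295). IGF2, the growth factor gene that shares an enhancer with H19, had only 2 to 28 counts per library, so the ratio of H19 to IGF2 was imprecise (log2 difference 0.37, exact permutation p = 0.485, adjusted 0.582).

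**Figure D4:**
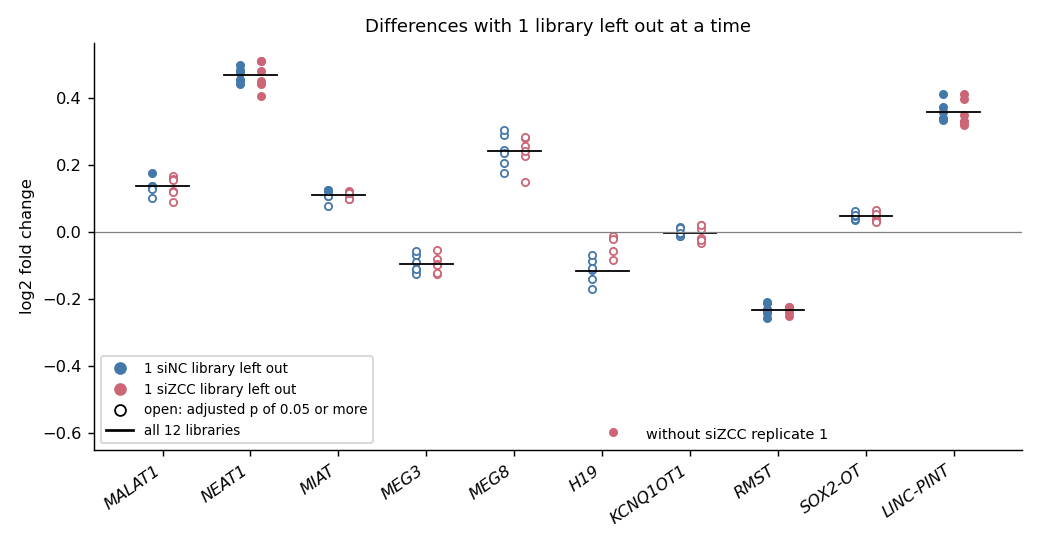
Log2 fold change (siZCC against siNC) of each RNA when 1 siNC (blue) or 1 siZCC (red) library is left out; filled points have an adjusted p under 0.05, open points do not, and black lines are the values with all 12 libraries. NEAT1 (0.41 to 0.51), LINC-PINT (0.32 to 0.41) and RMST (-0.26 to -0.21) stay filled throughout, and H19 drops to -0.60 without siZCC replicate 1.

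Of 21 listed genes in or beside the imprinted domains of these RNAs, 13 were tested, 2 rose and 2 fell. Their median log2 fold change was 1.38e-05. These 4 are 30.8% of those tested, beside 22.2% over all genes. DIO3OS, an antisense RNA at the far end of the domain of MEG3, went from 2.43 ± 0.174 to 3.396 ± 0.414 CPM (log2 fold change 0.48 ± 0.083, SE; edgeR, adjusted p = 0.000587), and CD81, a tetraspanin beside the KCNQ1OT1 domain, rose by 0.16 on the log2 scale (edgeR, adjusted p = 0.002). PHLDA2, a growth-restraining gene of the KCNQ1OT1 domain, changed by -0.47 on the log2 scale (edgeR, adjusted p = 0.00443). RTL1, a paternally expressed gene that overlaps MEG8 on the opposite strand, changed by -0.36 (edgeR, adjusted p = 0.025). DLK1, on the other side of MEG3, had a log2 fold change of 0.24 (edgeR, adjusted p = 0.0515).

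Among the neural and p53-linked RNAs, RMST (chr12:97430884-97598415, plus strand) fell. In the lowest, median and highest library RMST was at 39.2, 42.6 and 46.5 CPM in siNC and 35.4, 36.5 and 38.7 CPM in siZCC. Every siZCC library was below every siNC library, and the siZCC libraries varied little among themselves. The mean went from 43.1 ± 2.79 to 36.7 ± 1.23 CPM (SD, n = 6 each), 0.852 times the control level, with a log2 fold change of -0.23 ± 0.040 (SE; 95% interval -0.32 to -0.15; edgeR, adjusted p = 0.000605). Per kb this was 6.71 CPM in siNC and 5.71 CPM in siZCC. The fall was seen on both sides of the IL1B gap, at -0.25 among high-IL1B libraries (edgeR, adjusted p = 0.0288) and -0.22 among low-IL1B libraries (edgeR, adjusted p = 0.0273).

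SOX2, the partner of RMST, rose from 621.2 ± 20.6 to 715.7 ± 19.01 CPM (log2 fold change 0.20 ± 0.028, SE; edgeR, adjusted p = 8.08e-05), with no overlap of the groups. SOX2-OT (chr3:180989762-181836880, plus strand), the long transcription unit that contains SOX2, did not pass the test. Its lowest, median and highest levels were 116.0, 120.7 and 127.0 CPM in siNC and 114.9, 125.7 and 130.4 CPM in siZCC, which overlapped. The log2 fold change was 0.05 ± 0.034 (SE; 95% interval -0.02 to 0.12; edgeR, adjusted p = 0.343), and the level per kb 3.82 and 3.95 CPM. The log2 ratio of SOX2-OT to SOX2 was -2.36 ± 0.074 in siNC and -2.52 ± 0.077 in siZCC (SD, n = 6 each), with 5 of 6 siZCC libraries below the siNC minimum (difference -0.16, exact permutation p = 0.00433, adjusted 0.013). SOX2 lies inside SOX2-OT on the same strand, so reads of exons that both share can be assigned to either or to neither; how the authors treated them is not given in the sources used here.

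LINC-PINT (chr7:130876809-131110176, minus strand) rose at a low level, on 190 to 360 counts per library. From lowest through median to highest, LINC-PINT was at 2.24, 2.36 and 2.89 CPM in siNC and 2.54, 3.32 and 3.52 CPM in siZCC. The groups overlapped, but 4 siZCC libraries were above the siNC maximum and all 6 above the siNC mean. The mean went from 2.45 ± 0.248 to 3.14 ± 0.414 CPM (SD, n = 6 each), a 1.28-fold rise with a log2 fold change of 0.36 ± 0.092 (SE; 95% interval 0.17 to 0.55; edgeR, adjusted p = 0.00979). Per kb this was 0.157 CPM in siNC and 0.201 CPM in siZCC. The test was passed among the low-IL1B libraries (log2 fold change 0.50; edgeR, adjusted p = 0.0106) but not among the high-IL1B ones (0.19; edgeR, adjusted p = 0.414). GENCODE v29 gives this symbol 2 gene identifiers and the table has 1 row, so which of them was counted is not known here. The levels per kb divide by the exons of both.

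LINC-PINT starts beside MKLN1, which is transcribed the other way and overlaps it on the opposite strand. MKLN1, a subunit of a ubiquitin ligase, was at 78.9 ± 8.92 CPM in siNC and 87.0 ± 4.52 in siZCC (SD, n = 6 each; log2 fold change 0.14; edgeR, adjusted p = 0.102). The log2 ratio of LINC-PINT to MKLN1 was -5.00 ± 0.240 and -4.80 ± 0.140 (SD, n = 6 each), and the groups overlapped (exact permutation p = 0.108, adjusted 0.162).

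The promoters of RMST and LINC-PINT, the neural RNA that fell and the p53-linked RNA that rose, are shown, with 1 window each, from 250 bases before to 50 after a start in the RefSeq promoter table (GRCh38.p14), with each CG in capitals. The RMST window (chr12:97464441-97464740, plus strand) holds 2 CpG, and the LINC-PINT window (chr7:131109876-131110175, minus strand) holds 23, among them a run of CCG repeats.
RMST promoter: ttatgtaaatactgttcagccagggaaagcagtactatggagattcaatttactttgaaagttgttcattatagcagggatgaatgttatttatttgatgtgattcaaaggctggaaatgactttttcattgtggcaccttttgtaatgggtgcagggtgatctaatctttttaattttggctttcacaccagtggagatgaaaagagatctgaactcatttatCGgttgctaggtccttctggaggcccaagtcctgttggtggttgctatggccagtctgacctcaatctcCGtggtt
LINC-PINT promoter: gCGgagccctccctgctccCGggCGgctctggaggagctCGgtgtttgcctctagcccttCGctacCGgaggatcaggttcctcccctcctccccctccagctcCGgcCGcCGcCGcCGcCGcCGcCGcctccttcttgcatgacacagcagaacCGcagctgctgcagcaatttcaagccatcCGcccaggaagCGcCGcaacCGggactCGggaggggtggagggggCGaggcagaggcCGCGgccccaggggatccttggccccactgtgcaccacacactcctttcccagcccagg

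The RefSeq table has windows for 7 of the 10 RNAs, 16 in all. Over its 35116 windows of this length the median was 14 CpG; 11.0% held fewer than the RMST window and 64.2% fewer than the LINC-PINT window shown. The other 3 LINC-PINT windows hold 9, 13 and 24 CpG, and the other RMST window 2. Of the windows of the other members, MALAT1 reached 37 CpG and MIAT had 3. On either strand, all 4 LINC-PINT windows held the GC box GGGCGG, which 44.95% of all windows hold, and neither RMST window did. Of those 4, the window shown and the one with 24 CpG overlap each other. All 3 MEG3 windows, which overlap each other, held TGACGTCA, the cAMP response element, against 1.85% of all windows. The SOX core CATTGT was in 1 of the RMST windows and in 10.8% of all.

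Several of these RNAs are hosts of microRNAs, and 2 symbols annotated as hosts of the same microRNA rose. LINC-PINT carries MIR29B1 within an annotated exon (hsa-miR-29b-3p, chr7:130877467-130877489, minus strand). That exon was sought over both gene identifiers of LINC-PINT, so the counted row may not include MIR29B1. MIR29B2CHG carries MIR29B2, whose mature hsa-miR-29b-3p (chr1:207802450-207802472, minus strand) is identical. MIR29B2CHG went from 7.61 ± 0.213 to 9.23 ± 0.611 CPM (SD, n = 6 each; log2 fold change 0.28 ± 0.049, SE; edgeR, adjusted p = 0.000725). RMST contains MIR135A2 (chr12:97563872-97563893, plus strand) and MIR1251 (chr12:97491913-97491933, plus strand) outside its annotated exons, and H19 contains MIR675 in an exon. MEG8 contains the most microRNAs of these hosts, and MEG3 also contains some. Of these other hosts, MEG8, MEG3 and H19 were not called, and RMST fell. Of the mature sequences that LINC-PINT and RMST carry, 3 are shown, 1 from each hairpin, with the seed, bases 2 to 8, in capitals, from RefSeq (GRCh38.p14).
hsa-miR-29b-3p: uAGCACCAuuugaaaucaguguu
hsa-miR-135a-2-3p: aUGUAGGGauggaagccaugaa
hsa-miR-1251-5p: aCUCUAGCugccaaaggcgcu

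The 3 seeds differ from each other. Mature microRNAs are not captured by libraries of this kind, so their levels were not measured. The row of MIR675 is 0 in every library, and that of MIR135A2, with 26 to 46 counts, lies in an RMST intron from which its reads cannot be told apart.

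Of 35 tested among 42 other well-known long noncoding RNAs, 5 rose and 5 fell, and the median log2 fold change was -0.02. These 10 are 28.6% of those tested, beside 22.2% over all genes. Besides MIR29B2CHG, MIR100HG, the host of a microRNA cluster, rose by 0.28 on the log2 scale (189.0 ± 5.58 to 228.8 ± 13.9 CPM, SD, n = 6 each; edgeR, adjusted p = 7.79e-05), as did SNHG1 (0.14), GAS5 (0.17) and OIP5-AS1 (0.14; edgeR, adjusted p = 0.00461, 0.0107 and 0.0144). JPX, a gene of the X inactivation center, changed by -0.25 (73.9 ± 3.28 to 62.2 ± 2.32 CPM; edgeR, adjusted p = 8.23e-05), and MIR22HG by -0.31 (edgeR, adjusted p = 0.005). DLX6-AS1 and TUNAR, both neural, changed by -0.19 and -0.22, and CYTOR by -0.32 (edgeR, adjusted p = 0.00711, 0.0208 and 0.0126).

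Of 27 partners and regulators of the 10 RNAs, 26 were tested, 5 rose and 4 fell, with a median log2 fold change of -0.02. These 9 are 34.6% of those tested, beside 22.2% over all genes. Besides SOX2, QKI, an RNA-binding protein of glia and progenitors, went from 850.5 ± 52.0 to 974.7 ± 54.6 CPM (log2 fold change 0.20; edgeR, adjusted p = 0.00337). METTL16, which binds the triple helix of MALAT1, rose by 0.09, and IGF2BP2, an RNA-binding protein of the embryo, by 0.09 (edgeR, adjusted p = 0.0173 and 0.0183), and EHMT2, a histone methyltransferase, by 0.11 (edgeR, adjusted p = 0.033). EZH2, the methyltransferase of Polycomb complex PRC2, changed by -0.17 (edgeR, adjusted p = 0.000295), and CTCF, the insulator protein of the H19 domain, by -0.13 (edgeR, adjusted p = 0.00176). DGCR8, of the microRNA processor, and HNRNPA2B1 changed by -0.12 and -0.09 (edgeR, adjusted p = 0.0119 and 0.0231). Without a filter on low counts the count was 5, 2 higher and 3 lower.

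Among 35 factors of nuclear RNA decay, all tested, 1 rose, 6 fell and the median log2 fold change was -0.05. These 7 are 20.0% of the list, beside 22.2% over all genes. EXOSC7, an exosome subunit, rose by 0.13 (edgeR, adjusted p = 0.024). XRN2, the exonuclease of transcription termination, went from 95.8 ± 2.20 to 83.8 ± 1.15 CPM (SD, n = 6 each; log2 fold change -0.19; edgeR, adjusted p = 4.77e-05). SRRT, which links the RNA cap to decay, changed by -0.17 (edgeR, adjusted p = 0.00464). ZCCHC8, of the complex that feeds nuclear RNA to the exosome, changed by -0.10, and EXOSC2, EXOSC9 and NCBP1 by -0.09, -0.10 and -0.11 (edgeR, adjusted p = 0.0288, 0.028, 0.0325 and 0.0316). The count moved with single libraries: it was 4 without siNC replicate 4, 3 without siZCC replicate 1, 3 or 4, and 4 without a filter on low counts.

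Of the 18 tested genes that flank the members most closely, 2 rose and 4 fell, where 11.4% of all genes rose and 10.8% fell. Genes that only overlap a member, such as SOX2 and MKLN1, were left out of the 18. Some of the flanking genes lie far from their member. FRMD8, which lies 9249 bases from NEAT1 on the same strand, changed by -0.15 on the log2 scale (42.5 ± 1.68 to 38.3 ± 0.961 CPM, SD, n = 6 each; edgeR, adjusted p = 0.00249), opposite to NEAT1. The noncoding RNA AC007424.1, 114997 bases from RMST, changed by -0.78 (0.522 ± 0.118 to 0.302 ± 0.0547 CPM, edgeR adjusted p = 0.00432). The noncoding RNA LINC01206, 115463 bases from SOX2-OT, changed by -0.64 (6.54 ± 1.21 to 4.18 ± 0.531 CPM, edgeR adjusted p = 0.000636). LINC01422, 182159 bases from MIAT, rose by 0.56, from 0.839 ± 0.113 to 1.24 ± 0.164 CPM (edgeR, adjusted p = 0.00212). The other 2 are RTL1, 18722 bases from MEG3, and DIO3OS, 513362 bases from MEG8.

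**Figure D5:**
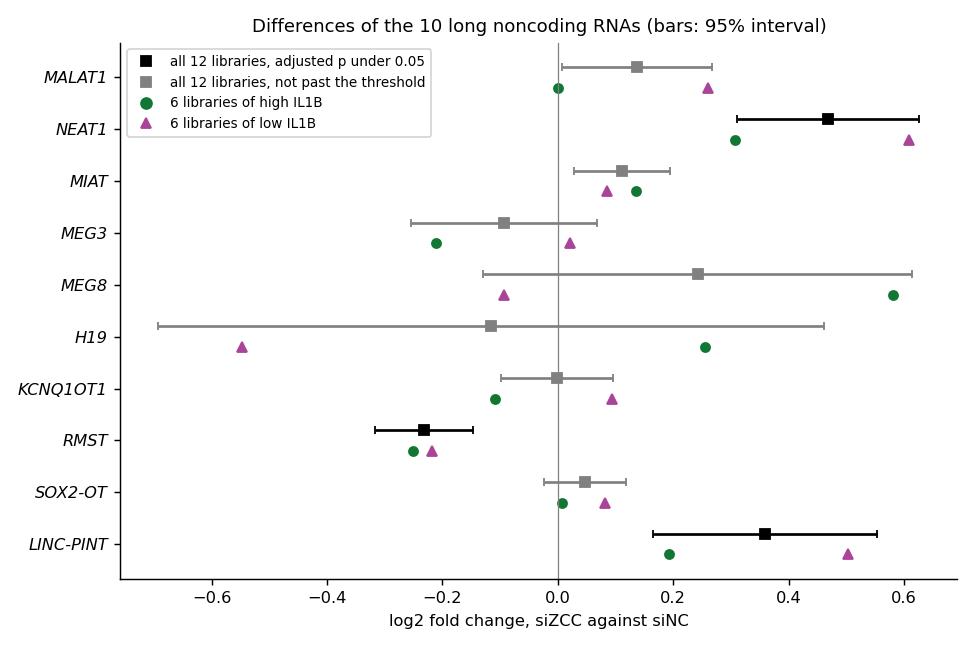
Log2 fold change (x axis, siZCC against siNC) of the 10 RNAs, as squares with 95% intervals over all 12 libraries (black: adjusted p under 0.05) and within the 6 libraries of high IL1B (green circles) or low IL1B (purple triangles). NEAT1 and RMST keep their direction on both sides, while MALAT1 is at 0.001 among high-IL1B and 0.26 among low-IL1B libraries.

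No member passed a test of whether its change differed between the 2 sides of the IL1B gap. NEAT1, MALAT1 and KCNQ1OT1 had the smallest unadjusted p among the members. Their log2 fold changes were lower among high-IL1B than among low-IL1B libraries, by -0.30, -0.26 and -0.20. The test of that difference (an interaction term in edgeR's quasi-likelihood fit over all genes) gave 0.0115, 0.0189 and 0.00709 as unadjusted p-values and 0.935 as adjusted p for each. Across all 24671 genes none passed this test and 1177 had an unadjusted p under 0.05. That number is about what the threshold lets through by chance. For RMST the 2 sides differed by -0.03 (same test, unadjusted p = 0.708, adjusted 0.983). Within siZCC the low-IL1B libraries held 90308230 counts or more and the high-IL1B ones 85339499 or fewer. Side and depth therefore cannot be told apart in siZCC.

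Within the groups some of these RNAs varied together. After removing the group means, the log2 levels of MALAT1 and KCNQ1OT1 had r = 0.81 over the 12 libraries, MALAT1 and NEAT1 0.72, and KCNQ1OT1 and SOX2-OT 0.74. These values describe libraries that also differ in depth, with which KCNQ1OT1 had r = 0.61 and MALAT1 0.49. RMST had r of -8.89e-05 with MALAT1, -0.07 with NEAT1 and 0.31 with KCNQ1OT1. By the same measure, the genes most like NEAT1 were CCDC18-AS1 (r = 0.94) and HSDL2 (0.93), most like MALAT1 RALA (0.93) and SDHD (0.93), and most like MIAT UBE3B (0.97) and ARMCX4 (0.95). RMST was closest to CDH2 (0.95) and ZFP36L2 (0.94). LINC-PINT was closest to ATP5MG and RPL7L1 (both 0.94), KCNQ1OT1 to PPIG and PCNP (both 0.94), and SOX2-OT to GANC (0.93). For H19 the closest were C9orf40 (0.92) and MARVELD1 (0.91), for MEG3 FAM86C1P and SNRPD1 (both 0.89), and for MEG8 SKA3 (0.89) and CNNM4 (0.87). These are the highest r among all other genes of at least 5 CPM, over only 12 libraries. No background for such a highest value was computed, so they were not told apart from chance.

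Some markers of cell types moved with the groups too. Over all genes 22.2% were called, 11.4% as higher and 10.8% as lower. All 10 markers of dividing cells fell, and their summed level was 732.3 to 842.2 CPM in siNC and 561 to 657.6 CPM in siZCC. Of 14 neuronal markers 7 fell and 1 rose (summed 4008 to 4479 and 3614 to 4109 CPM), and of 12 progenitor markers 4 rose and 1 fell (6226 to 6601 and 6288 to 6815 CPM). Of 9 astrocyte markers 4 rose and 1 fell (1650 to 1874 and 1720 to 2043 CPM), and of 5 tested endothelial markers 2 fell (12.4 to 17.6 and 8.62 to 10.7 CPM). Among 9 tested mesenchymal markers 1 rose and 3 fell (245.4 to 481.5 and 222.5 to 353.3 CPM). Of 6 tested oligodendrocyte lineage markers none rose and 1 fell (154.0 to 194.4 and 159.5 to 195.2 CPM). Of 4 tested pluripotent cell markers 2 rose and 1 fell (60.3 to 66.4 and 60.3 to 65.7 CPM). The summed ranges of the groups overlapped for every list but the dividing and endothelial markers. None of the 4 tested microglial markers was called, and P2RY12 and C1QA were under 10 counts in every library. No marker of these lists was at 0 in every library. The part of these shifts in the results on NEAT1, RMST and LINC-PINT was not tested.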

How the data were processed

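Total RNA libraries (NEBNext Ultra II Directional kit, per the labels' protocols) were aligned and counted by the authors. The deposited values are whole-number counts per gene symbol, not normalized. The submitters' processing notes name bcl2fastq 2.17, STAR 2.7.6a, featureCounts 2.0.1 and GRCh38. The annotation, the strand setting and the treatment of overlapping genes are not given in the sources used here, so reads of overlapping or antisense genes could be split or lost in unknown ways. Groups and replicate numbers came from the sample titles.

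Counts were analysed in R 4.3.3 with edgeR 4.0.16: filterByExpr kept 24671 genes, TMM factors scaled the libraries, and siZCC was compared with siNC by the quasi-likelihood test over all 12 libraries without covariates, with Benjamini-Hochberg adjustment over all genes kept and a threshold of 0.05. The SE is the log2 fold change divided by the square root of F. Log2 CPM used a prior count of 2, and 0.5 was added to counts in ratios. The spread between libraries, a biological coefficient of variation of 6.55%, and not the depth of 76115083 to 120023356 counts, limits precision except for low genes such as MEG8. The scripts were tested on simulated data.

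Positions, exon lengths and transcripts are from GENCODE v29 (GRCh38), in which 92.2% of symbols were found; promoters and microRNAs are from RefSeq (GRCh38.p14). Alternatives were other scalings and filters, DESeq2 1.42.0, limma 3.58.1 voom, blocks, a GC content and length correction, and leaving out each library. Python 3.11.15 ran the permutation tests, sequence searches and figures. The members, lists and tests were chosen with earlier results of these data known. Genes named are the members, ZCCHC17, the partners in 6 ratios, the 2 smallest p-values called in each direction in each list, the nearest tested gene on each side of a member, and the 2 genes of at least 5 CPM most correlated with each member. Some genes that this rule names are not reported here. Other called genes of the lists, marker genes with values, and NONO and SFPQ were named after their values were seen.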

Additional observations from a re-analysis of the deposited data

Results flagged for a closer look

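The log2 CPM of H19 in siZCC replicate 1 was 1.59, while the other 5 siZCC libraries lay between -0.38 and 0.14. The gap to the nearest of them was 0.737 of the whole range of the group, above Dixon's critical value for 6 samples. Such a gap was looked for in 34 groups of 6 libraries and found in 1, and chance gives it in about 1 of 20 groups.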

How the results depend on the processing

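NEAT1 and RMST kept their direction and passed the test (edgeR or the tool named) in all 23 alternatives; leaving out 1 library gave log2 fold changes of 0.41 to 0.51 and -0.26 to -0.21. LINC-PINT (0.32 to 0.41) missed it only within the high-IL1B libraries (0.19). MIAT passed with a mean count of at least 50 (0.11), the DESeq2 Wald test (0.11), limma voom (0.11), a GC content and length correction (0.093) and an IL1B block (0.11), and ranged from 0.080 to 0.13 with 1 library left out, passing without siNC replicate 2, siNC replicate 5 or siZCC replicate 1. MALAT1 (0.090 to 0.18 with 1 library left out) passed without siNC replicate 3 and within the low-IL1B libraries (0.26). H19 ranged from -0.60 to -0.011, and was 0.25 within the high-IL1B and -0.55 within the low-IL1B libraries, where it passed. MEG3 (-0.13 to -0.05) was 0.02, MEG8 (0.15 to 0.30) -0.094 and KCNQ1OT1 (-0.034 to 0.023) 0.095 within the low-IL1B libraries, and they were -0.21, 0.58 and -0.11 within the high-IL1B ones. KCNQ1OT1 turned positive, without passing, when siNC replicate 1 (0.014) or 3 (0.012), or siZCC replicate 1 (0.022), 4 (0.011) or 5 (0.023) was left out. SOX2-OT ranged from 0.03 to 0.07. MEG8 has no value at a mean count of at least 50. The cause was not tested in any of these.

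With 1 library left out, the ratio of NEAT1 to MALAT1 differed by 0.27 to 0.35, SOX2-OT to SOX2 by -0.18 to -0.13, MEG8 to MEG3 by 0.24 to 0.42, H19 to IGF2 by 0.12 to 0.62, LINC-PINT to MKLN1 by 0.14 to 0.28 (passing without siNC replicate 3), and KCNQ1OT1 to CDKN1C by -0.079 to 0.050, positive without siNC replicate 3 (0.0046) or siZCC replicate 1 (0.024), 4 (0.050) or 5 (0.012). The summed share of the members differed by 0.0133 to 0.0259 percentage points.

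Genes called were 4484 to 5626 with 1 library left out, 2043 within the high-IL1B and 1602 within the low-IL1B libraries, the smaller fits having fewer samples. Members called were 3 to 5 with 1 library left out, 5 within the low-IL1B and 2 within the high-IL1B libraries. Counts for the lists with 1 library left out were 5 to 8 (paraspeckle), 7 to 11 (partners), 3 to 9 (nuclear decay), 3 to 4 (imprinted) and 9 to 13 (other RNAs). Within the low-IL1B libraries they were 2, 4, 2, 1 and 7, and within the high-IL1B libraries 4, 3, 2, 3 and 4. Without a filter the partners counted 5 and nuclear decay 4. The fits within each side of the IL1B gap were added after seeing the data.

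No label says whether libraries of the same number were paired. Their deviations from the group means had r of -0.077 to 0.018. Every such pair lies on opposite sides of the IL1B gap, so these values cannot decide whether they were paired. In the fit with a replicate block 4902 genes passed, MIAT passed (0.11, adjusted p = 0.0384), and the ratios of NEAT1 to MALAT1 (0.32) and SOX2-OT to SOX2 (-0.16) had an adjusted exact permutation p of 0.0938, where the smallest possible p before adjustment was 0.0312.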
